A study of Mus musculus and Mus musculus
Oryx dammah with 30 samples.

Results

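The genes transcribed from the genome of the scimitar-horned oryx, Oryx dammah, were examined in mouse four-cell embryos that had received oryx cells by nuclear transfer (NT) and were cultured without or with α-amanitin. The members were the 6 oryx libraries among the 30 samples of the series and, within them, every gene with a summed value above 0. These were 14984 of 28559 identifiers, or 52.5%, and the other 13575 had no read in any library. The recipients were embryos of C57BL/6 and DBA/2 background, held at G2/M phase by demecolcine (0.1 μg/mL), and the donors were primary cells grown from the muscle of 1 oryx after its death. Libraries are called by their column names. The α-amanitin (−) group, with the libraries NT1, NT2 and NT3, was cultured for 24 h in demecolcine alone, and the α-amanitin (+) group, with the libraries Am1, Am2 and Am3, for the same time with α-amanitin added. Each library was made from a pool of 5 embryos, so p-values measure the spread between pools that share their donor animal.

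RNA polymerase II (Pol II) transcribes the messenger RNAs of the cell, and α-amanitin, a mushroom toxin, binds Pol II and blocks elongation. In embryos treated with it, messenger RNA that was made before the treatment can still be detected, while new transcripts do not accumulate. A transferred cell brings its own cytoplasmic RNA into the embryo, so oryx reads can come from RNA carried over as well as from new transcription, and in such pools fewer donor nuclei and less RNA per nucleus cannot be told apart. Reads were assigned to the oryx only if they had failed to map to the mouse genome, so oryx reads that also match the mouse are missing. Mouse reads that failed to map to the mouse genome could in turn be counted for oryx genes, and their share was not tested. The table gives serial identifiers without gene names, lengths or positions, and the gene annotation of the oryx genome was not used here. Functions of genes and markers of muscle or embryo are therefore not analysed here, and abundance below means reads per gene and not transcripts per gene.

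The 6 libraries held 276921 to 534401 oryx reads. The group means were 422133 reads without α-amanitin and 388647 with it, and the groups overlapped (exact permutation test, two-sided, p = 0.8). Pearson's r across the tested genes, on log2(normalized read count + 1), was 0.85 to 0.86 between the α-amanitin (−) libraries, 0.77 to 0.82 between the α-amanitin (+) libraries and 0.50 to 0.65 between groups. NT1 and Am1 were the most alike of the libraries of different groups, and NT2 and Am3 the least alike.

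More oryx genes were detected in embryos without α-amanitin. At least 1 read was found for 11041 genes in NT1, 10879 in NT2 and 10298 in NT3. In the α-amanitin (+) group the numbers were 8486 in Am1, 8686 in Am2 and 6838 in Am3. Every α-amanitin (−) library thus held more genes than any α-amanitin (+) library. The means were 10739 ± 390.7 (SD, n = 3) and 8003 ± 1014 (SD, n = 3), a difference of 2736 genes (two-sided exact permutation test, p = 0.1, below which 3 against 3 libraries cannot go).

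Depth differed between the libraries, and Am3 was the shallowest, so the number of genes expected in 276921 reads was calculated for each. At that depth 9919 genes were expected in NT1, 10261 in NT2 and 9951 in NT3. The values were 7822 for Am1, 8172 for Am2 and 6838 for Am3, and the groups remained apart (difference 2433, exact permutation test, two-sided, p = 0.1). The curves of detection against depth were separate by group over their whole length. Without Am3 the difference in detected genes was 2153, the smallest of those with 1 library left out.

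**Figure D1:**
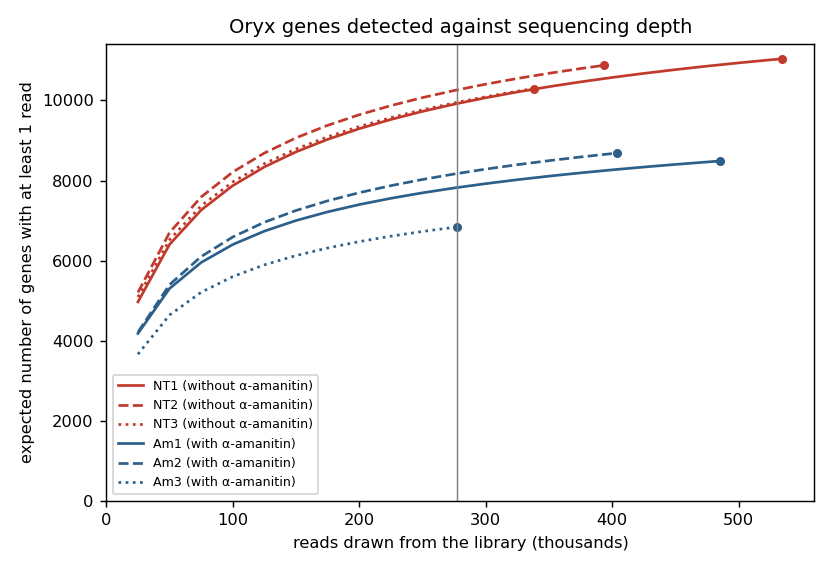
Expected number of oryx genes with at least 1 read (vertical axis) against the number of reads drawn from each library in units of 1000 (horizontal axis), with 1 curve per library. Points mark the libraries at full depth and the grey line the depth of Am3; the 3 curves without α-amanitin run above the 3 with it.

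Of the 14984 genes, 4750 (31.7%) had a read in all 6 libraries. A read in at least 1 α-amanitin (−) library was found for 13857 genes and in at least 1 α-amanitin (+) library for 11037, with 9910 in both. The 3947 genes detected without α-amanitin and in none of the treated libraries outnumbered the 1127 with the opposite pattern. Most of these rested on few reads, as 2163 of the 3947 were seen in a single library, with a median of 1 read. The number of genes with reads in all 3 libraries of a group and none in the other was 733 for the α-amanitin (−) group and 41 for the α-amanitin (+) group. With at least 10 reads in each of the 3 libraries there were 83 and 3 such genes. A count of 0 allows up to 3 reads in a library, so these genes may still have been present at a low level, and these limits cover counting error only.

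Oryx reads were spread over more genes in the absence of α-amanitin. The 100 most abundant genes of each library held 25.4% of the reads in NT1, 23.6% in NT2 and 23.3% in NT3. They held 33.2% in Am1, 34.4% in Am2 and 38.1% in Am3, more than in any untreated library (exact permutation test, two-sided, p = 0.1). The 10 most abundant genes held 9.55%, 8.31% and 8.38% in NT1, NT2 and NT3 and 13.8%, 14.6% and 16.6% in Am1, Am2 and Am3. To reach 50% of the reads, 460, 520 and 517 genes were needed in NT1, NT2 and NT3, and 300, 283 and 218 in Am1, Am2 and Am3.

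Expression was compared between the groups with edgeR's quasi-likelihood test on the whole reads recovered from the normalized counts. The filter on low counts, about 10 reads in at least 3 libraries, kept 4582 of the 14984 genes (30.6%). Differentially expressed genes (DEGs) had a Benjamini-Hochberg adjusted p under 0.05 and at least a 4-fold change, and all changes are given as α-amanitin (−) over α-amanitin (+). Of the tested genes, 454 (9.91%) were higher without α-amanitin and 151 (3.3%) were lower, and the higher ones made up 75% of all 605 DEGs. Some genes were tested through the reads of 1 group. Of the tested genes, 451 reached its limit in the 3 α-amanitin (−) libraries and no other, 293 of which were among the 454, and 69 reached it in the 3 α-amanitin (+) libraries and no other, 39 of which were among the 151. Such genes had to differ, and the split of the DEGs draws on them. With all 14984 genes with a read tested, there were 789 higher and 215 lower DEGs, or 78.6% higher. That fit kept the same genes and added scarcer ones, so it cannot show how the filter bears on the split. By the adjusted p alone, 627 genes (13.7%) were higher and 469 (10.2%) lower. The libraries of the groups did not overlap for 1307 genes (28.5%) that were higher and for 828 (18.1%) that were lower.

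The split of the DEGs moved with the scaling of the libraries. With libraries scaled to total reads alone, 547 genes were higher and 90 lower, or 85.9% higher, and the median log2 change of the 4582 genes was 0.37 instead of 0.10. The table lists no spike-in RNA, so a change common to all oryx genes could not be measured. The counts also depended on single libraries. They were 198 higher and 67 lower without NT2, and 225 and 81 without NT3. With each library left out in turn, 153 of the 454 and 47 of the 151 were DEGs every time.

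The 454 genes higher without α-amanitin were of moderate abundance. The median of their mean normalized count was 39.1 without and 3.17 with α-amanitin. All 454 had reads in every α-amanitin (−) library, while reads were found for 320 of them in Am1, 322 in Am2 and 218 in Am3. This contrast follows largely from the choice of the genes, as 293 of the 454 passed the filter through the α-amanitin (−) libraries alone. In 165 of them (36.3%) no α-amanitin (+) library had more than 3 reads, and 72 had 0 reads in all of these libraries. When these 165 genes were put at the lower bound set by 3 reads per library, the median log2 change of the 454 was 2.86, with quartiles of 2.38 and 3.38. At least 16-fold changes were found for 29 genes. The 454 genes together held 7.39%, 9.49% and 8.92% of the reads in NT1, NT2 and NT3 and 1.37%, 0.866% and 0.621% in Am1, Am2 and Am3.

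The 151 genes lower without α-amanitin were mostly reduced rather than absent. All 151 had reads in every α-amanitin (+) library, and 146, 139 and 145 of them had reads in NT1, NT2 and NT3. Only 5 of the 151 had at most 3 reads in each α-amanitin (−) library, and 3 had none at all. Their median mean normalized count was 11.5 without and 66.1 with α-amanitin. The median log2 change was -2.42, and 4 genes fell at least 16-fold. These genes held 2.31%, 1.53% and 1.58% of the reads in NT1, NT2 and NT3 but 9.53%, 10.5% and 10.3% in Am1, Am2 and Am3. The reads of tested genes that were not DEGs took 81.0% to 83.8% of the α-amanitin (−) libraries and 83.5% to 85.3% of the others. These shares, and the detection of the 151 genes by library, describe genes chosen by the same contrast and were not tested.

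The DEG with the smallest p among those that were higher was Oryx_dammah_006457. Its normalized read count was 240.1 in NT1, 262.5 in NT2 and 161.8 in NT3, from 347, 288 and 149 reads, and it had 0 reads in Am1, Am2 and Am3. Against a limit of 3 reads per α-amanitin (+) library the untreated group was at least 67.6-fold higher (adjusted p = 0.000387, edgeR). Its adjusted p over all alternatives ranged from 1.91e-44 to 0.00875.

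Among those that were lower, the DEG with the smallest p was Oryx_dammah_022239, which belongs to the most abundant genes. Its normalized read count was 344.6 in NT1, 380.0 in NT2 and 321.5 in NT3, against 1906 in Am1, 2095 in Am2 and 2396 in Am3. The means were 348.7 ± 29.5 (SD, n = 3) and 2133 ± 247 (SD, n = 3), a separation that the choice by the smallest p favours. With a log2 change of -2.72 and a standard error of 0.18, it was 6.57-fold lower without α-amanitin (edgeR, adjusted p = 0.000284). Over all alternatives the log2 change lay between -2.77 and -2.44 and the adjusted p between 4e-37 and 0.00875.

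**Figure D2:**
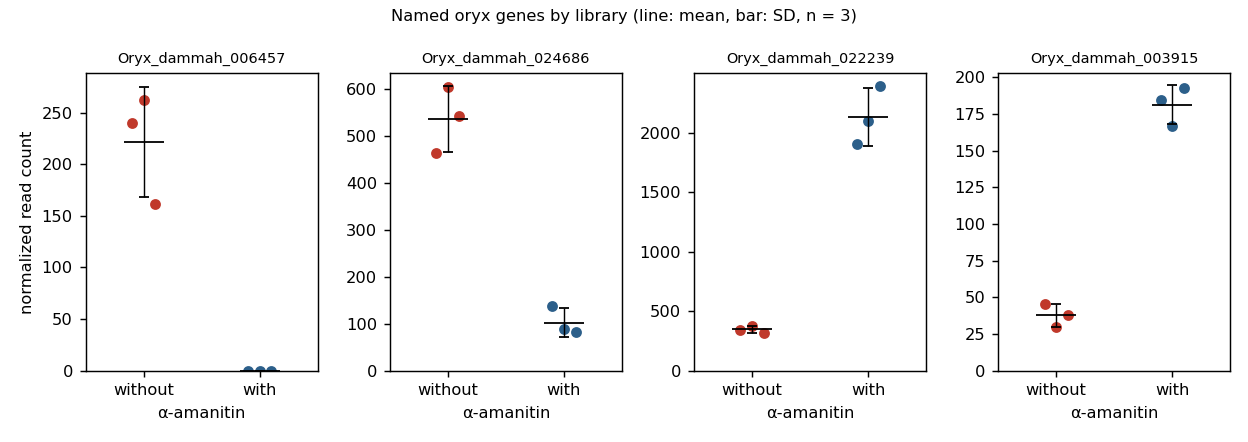
Normalized read count (vertical axes, each from 0) of the 4 named genes in the 3 libraries without and the 3 with α-amanitin, with 1 point per library and the mean and SD. The first pair of genes was higher without α-amanitin, at 0 reads with it for Oryx_dammah_006457, and the second pair was lower; no gene shows an overlap of the groups.

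To see at which abundance genes changed, they were placed in 4 classes by their mean normalized read count over all 6 libraries. A gene could enter a class through high counts in 1 group, so class and direction of change are not independent. There were 10578 genes under 10, 3632 from 10 to 100, 748 from 100 to 1000 and 26 at 1000 and over. Genes of the classes under 100 held a larger part of the reads without α-amanitin, and those of the classes from 100 a larger part with it. The class from 10 to 100 took 33.2%, 35.5% and 35.7% of the reads in NT1, NT2 and NT3 and 28.3%, 27.8% and 24.3% in Am1, Am2 and Am3. The 26 genes at 1000 and over took 14.2%, 12% and 12.1% in NT1, NT2 and NT3, and 20%, 21.3% and 23.1% in Am1, Am2 and Am3. The class from 100 to 1000, which held the most reads, took 45.6%, 44.2% and 44.5% in NT1, NT2 and NT3 and 46.8%, 45.8% and 48.8% in Am1, Am2 and Am3. In these 3 classes the groups did not overlap (exact permutation test, two-sided, p = 0.1 for each, 1 value per library and class).

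The difference in detection lay mostly in the scarce genes. Of the 10578 genes under 10, 60.1% ± 3.69 (SD, n = 3) were detected per α-amanitin (−) library and 36.9% ± 7.90 per α-amanitin (+) library. From 10 to 100 these shares were 99.4% ± 0.400 and 91.8% ± 4.91, with the lowest value, 86.1%, in Am3. Above 100 at least 99.7% of the genes were detected in every library.

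**Figure D3:**
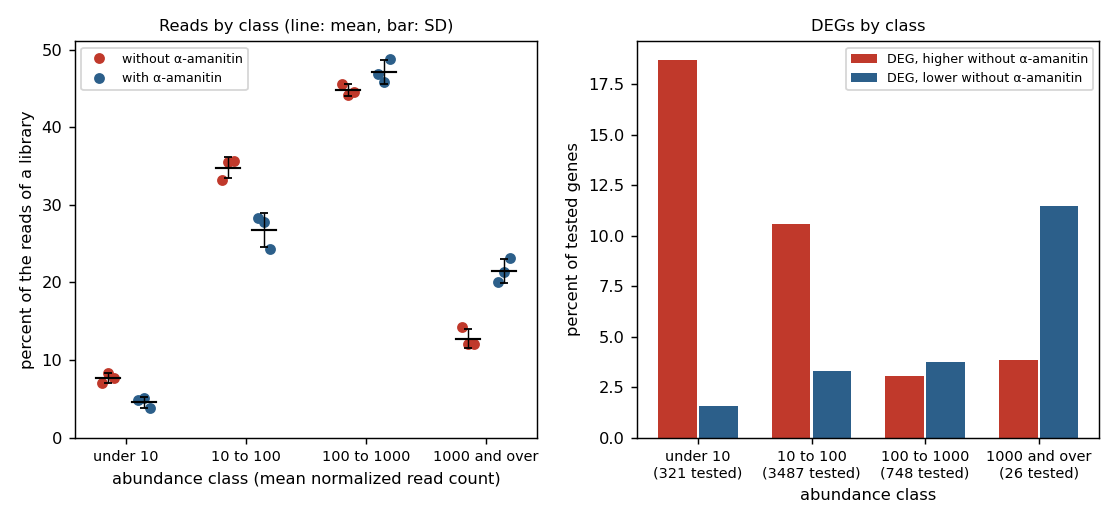
Left, percent of the reads of each library (vertical axis) in 4 classes of mean normalized read count (horizontal axis), with 1 point per library, the mean and the SD. Right, percent of the tested genes of each class that were DEGs higher or lower without α-amanitin, with 3.07% higher and 3.74% lower from 100 to 1000; the share under 10 is of tested genes, many of which passed the filter on low counts by reads in 1 group.

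The direction of the change was then counted within the classes. From 10 to 100, 3487 of the 3632 genes were tested, of which 370 (10.6%) were higher and 115 (3.3%) were lower DEGs, with a median log2 change of 0.18. Of these 3487 genes, 330 reached the limit of the filter in the 3 α-amanitin (−) libraries and no other, and 58 in the 3 α-amanitin (+) libraries and no other, and with all genes with a read tested the class had 474 higher and 138 lower DEGs and a median of 0.20. The counts of this class were 158 higher and 41 lower without NT2, 179 and 55 without NT3, and up to 454 and 131 without one of the other libraries. From 100 to 1000, all 748 were tested, of which 23 (3.07%) were higher and 28 (3.74%) lower, with a median of -0.30, and here the filter acted through 1 group for 2 genes. Which direction had more DEGs in this class turned with the setting, with 33 higher and 18 lower for total reads alone, 26 and 21 for DESeq2, 26 and 23 for DESeq2 size factors in edgeR and 26 and 25 for limma. By the adjusted p alone, 98 of these 748 (13.1%) were higher and 185 (24.7%) lower, beside 13.7% and 10.2% over all tested genes. In the class under 10, the 321 tested genes (3.03%) held 60 higher and 5 lower DEGs, but a gene so scarce often passes the filter by reads in 1 group. Of the 321, 119 reached the limit of the filter in the 3 α-amanitin (−) libraries and no other, and 11 in the 3 α-amanitin (+) libraries and no other, so that the count is no result about the class.

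Precision rose with abundance. The median standard error of the log2 change was 0.94 under 10, 0.60 from 10 to 100, 0.26 from 100 to 1000 and 0.23 at 1000 and over. The spread was larger with α-amanitin among the scarce genes. From 10 to 100 the median SD of log2(normalized read count + 1) was 0.46 between the α-amanitin (−) libraries and 0.66 between the α-amanitin (+) libraries. From 100 to 1000 it was 0.25 and 0.29. The 4-fold criterion therefore left out many abundant genes that passed the adjusted p, and the share of DEGs cannot be compared between classes without regard to the precision.

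**Figure D4:**
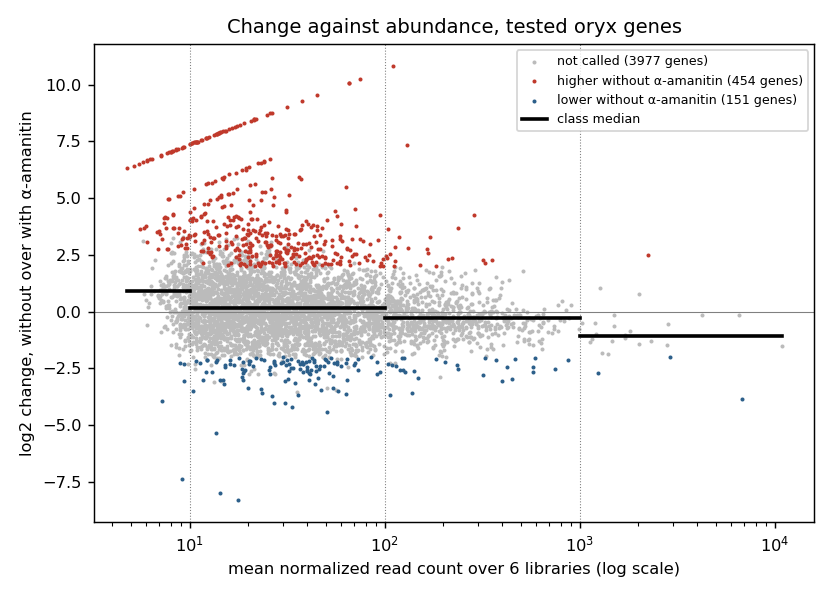
Log2 change of the 4582 tested genes (vertical axis) against their mean normalized read count over 6 libraries (horizontal log axis), with the 454 higher and 151 lower DEGs in colour. Black lines mark the medians of the classes, which are -0.30 from 100 to 1000 and -1.09 at 1000 and over; the median under 10 is over tested genes, many of which passed the filter by reads in 1 group, and the straight rows of points at the upper left are genes with 0 or very few reads with α-amanitin, whose fitted change depends on the prior count.

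Of the 26 genes at 1000 and over, 23 had a negative and 3 a positive log2 change, with a median of -1.09. Some of the 26 had a mean of 1000 or more in 1 group only, more often with than without α-amanitin. Membership and direction are therefore not independent in this class. By the adjusted p alone, 17 of the 26 (65.4%) were lower without α-amanitin and 3 (11.5%) were higher, beside 10.2% and 13.7% over all tested genes. For the same 17 and 3 genes the libraries of the groups did not overlap, beside 18.1% and 28.5% over all tested genes. Of the 26, 4 were DEGs by both criteria. One of these, the fifth most abundant gene, had a log2 change of -2 and so lay at the 4-fold limit, below which it fell with DESeq2, limma, either other scaling, all genes tested, or without NT1, NT3, Am1 or Am3. The median of this class was between -1.19 and -0.96 with each library left out and -0.81 with total reads alone, while that of the genes from 100 to 1000 was -0.02 with total reads alone.

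The single most abundant gene had normalized read counts of 8291, 4317 and 5174 in NT1, NT2 and NT3 and of 13851, 15347 and 18186 in Am1, Am2 and Am3, which gave a log2 change of -1.52 with a standard error of 0.25 (edgeR, adjusted p = 0.00455). The next gene in this order varied more among the untreated libraries. It had 2017 in NT1, 203.2 in NT2 and 582.1 in NT3 against 12501, 13599 and 11749 in Am1, Am2 and Am3, a log2 change of -3.86 with a standard error of 0.69 (adjusted p = 0.0058). The ninth most abundant gene was a DEG in the other direction, with 2889, 4458 and 4185 in NT1, NT2 and NT3 and 1255, 332.9 and 303.5 in Am1, Am2 and Am3 (log2 change 2.49, standard error 0.51, adjusted p = 0.00877). Without NT2 this gene was no longer a DEG (log2 change 2.39, adjusted p = 0.0512), and without Am1 its log2 change was 3.50. The log2 change of the second most abundant gene was -5.12 without NT1. In the latter pair of genes NT1 was the untreated library closest to the treated group. These 3 genes were picked after their values were seen, and the files do not pair them with names.

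Identifiers run from 1 to 28559 without a gap. Whether the numbers follow the order of genes along the oryx genome is not given in the sources used here, so a neighbour below is the next number and not a known position. Detection was shared between neighbours. After an identifier with a read, the next one had a read in 66.0% of cases, against 37.6% after an identifier without one and 52.5% over all. The longest stretch of identifiers with a read in at least 1 library was 25 and the longest without any was 106. In blocks of 1000 identifiers, the share with a read was 41.2% to 63.7% over the first 27 blocks, 12.4% in block 28 and 10.7% in the last block, which holds 559 identifiers.

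The share of higher DEGs also varied along the numbers. Over the first 27 blocks, each with at least 110 tested genes, it ranged from 2.11% (3 of 142) in block 4 to 20.1% (30 of 149) in block 25, beside 9.91% over all tested genes. Block 4 had 8 lower DEGs and a median log2 change of -0.42. Each block from 18 to 27 was above 9.91%, while of the first 17 blocks this held for 3, which were blocks 2, 10 and 16. Blocks 24 to 26 had 21 of 182, 30 of 149 and 29 of 183 higher DEGs, and 1, 2 and 2 lower ones. The blocks were examined after the values were known and were not tested.

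Pairs of neighbouring DEGs were counted next. Among 1317 pairs of consecutive identifiers with both members tested, both were higher DEGs in 17 pairs (1.29%, 95% Wilson interval 0.807% to 2.06%) and both were lower DEGs in 4 pairs (0.304%, interval 0.118% to 0.778%). In 2 pairs the members were DEGs of opposite direction. A higher DEG in such a pair had a higher DEG beside it in 15.2% of cases, and a lower DEG had a lower one beside it in 10.1%, beside 9.91% and 3.3% over all tested genes. At the larger distances examined, the shares were 1.56% to 19.5% for higher and 3.85% to 15.4% for lower DEGs, so that those of consecutive identifiers lay within these ranges. At larger distances the share of pairs that were both higher was 1.76% at 2, 1.63% at 5, 1.07% at 10, 1.34% at 20, 0.133% at 50 and 1.96% at 100. The interval at distance 50 (0.0235% to 0.749%) lay below that at distance 1, and the intervals at the other distances overlapped with it. The intervals cover counting error only, and pairs that share a gene are not independent. With 1 library left out, the share of consecutive pairs that were both higher was 0.389% without NT2, 0.45% without NT3 and 2.03% without Am1, and the share that were both lower was 0.13% without NT2, 0.0642% without NT3 and 0.184% without Am2.

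The size of the change was somewhat more alike within consecutive pairs. Pearson's r of the log2 changes, taken across pairs, was 0.16 at distance 1 and 0.00 to 0.09 at distances of 2 to 100. The changes had the same sign in 736 of the 1317 consecutive pairs (55.9%), and in 48.4% to 53.3% of the pairs at larger distances. The mean levels were also slightly more alike, with an r of 0.09 at distance 1 and -0.02 to 0.05 beyond it. Pairs share genes and libraries, so these values are descriptions and carry no p.

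**Figure D5:**
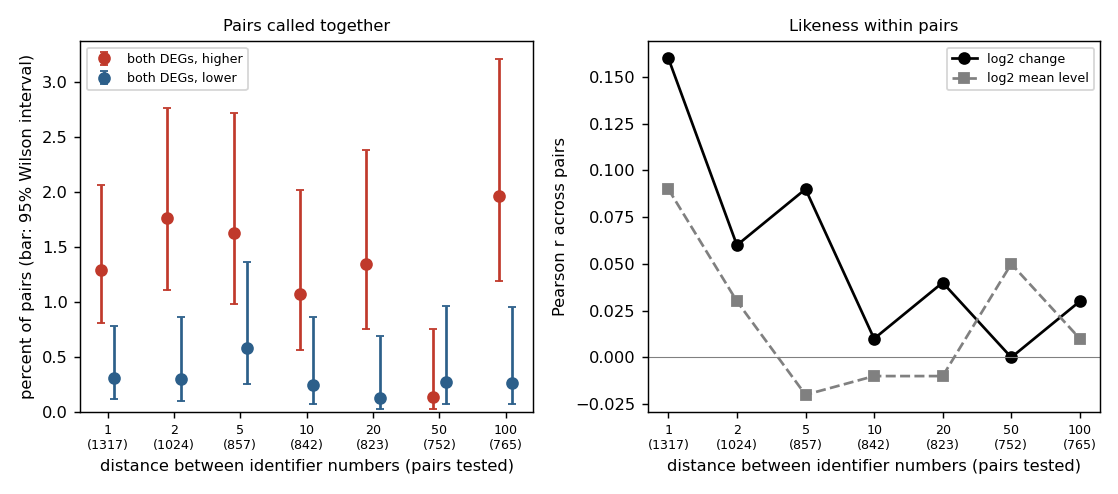
Left, percent of pairs in which both identifiers were DEGs of the same direction (vertical axis, with 95% Wilson intervals) against the distance between their numbers (horizontal axis, number of pairs in parentheses). Right, Pearson's r across the same pairs for the log2 change, which is 0.16 at distance 1 and at most 0.09 beyond, and for the log2 mean level.

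Runs of DEGs could form only where the next identifier was tested as well, which was the case for 1317 pairs. Of the higher DEGs, 422 stood alone, 13 runs had 2 consecutive identifiers and 2 runs had 3. Of the lower DEGs, 143 stood alone and 4 runs had 2. The longest run with the smallest summed p ended at Oryx_dammah_024686, which had normalized read counts of 463.7, 604.2 and 543.0 in NT1, NT2 and NT3 and of 137.5, 88.91 and 82.22 in Am1, Am2 and Am3 (log2 change 2.27, standard error 0.25, adjusted p = 0.00108, edgeR). The identifier before it had a like profile, with 560.6, 653.4 and 583.2 against 167.0, 77.06 and 101.7 and a log2 change of 2.26. The first of the 3 had 649.1, 703.6 and 300.8 against 39.75, 29.64 and 7.475, and a larger log2 change of 4.25. All 3 belonged to the class from 100 to 1000, which held 23 higher DEGs.

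In the other run of 3, the α-amanitin (−) libraries had 9.774 to 18.69 for the first identifier, 54.30 to 70.17 for the second and 83.05 to 97.74 for the third. Am1 had 0 reads for the second and the third and was below Am2 and Am3 there, while the first had reads in Am1 alone of the treated libraries. Of the runs of 2 lower DEGs, the one with the smallest summed p held Oryx_dammah_003915, with 45.68, 30.07 and 38.01 in NT1, NT2 and NT3 and 184.4, 167.0 and 192.8 in Am1, Am2 and Am3 (log2 change -2.35, standard error 0.27, adjusted p = 0.00112, edgeR). The identifier before it had 110.0, 72.91 and 46.70 against 336.3, 326.0 and 331.9, a log2 change of -2.20. In another such run both identifiers had 0 reads in NT1, NT2 and NT3, with 42.93, 35.57 and 28.40 for the first and 27.83, 41.49 and 16.44 for the second in Am1, Am2 and Am3. These were 2 of the 3 lower DEGs without a read in the α-amanitin (−) group.

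Some abundant neighbours kept a fixed ratio in every library. The third and the fourth most abundant genes have consecutive identifiers, and the ratio of their normalized counts was 1.58, 1.55 and 1.51 in NT1, NT2 and NT3 and 1.56, 1.59 and 1.52 in Am1, Am2 and Am3. Neither differed between the groups by the test (log2 change -0.14, standard error 0.19 for each, adjusted p = 0.622 and 0.634, edgeR). The seventh and the tenth are also consecutive, with ratios of 1.31 to 1.44, and both were lower without α-amanitin by the adjusted p alone, with log2 changes of -1.45 and -1.41. A further consecutive pair of the 26 genes had no such constancy, with ratios from 0.42 to 2.01. Among all consecutive pairs with both members at a mean of 100 or more, the ratio stayed within a 2-fold range over the 6 libraries in 16 of 54 pairs (29.6%). At distances from 2 to 100 this held for 1 to 6 of 19 to 33 pairs (5.26% to 31.6%). This measure was chosen after the values were seen. Whether such neighbours are separate transcripts cannot be told from identifiers and counts.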

How the data were processed

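RNA-seq libraries were made by the authors from pools of NT embryos by SMART-seq from polyA RNA, without strand information. The authors filtered and trimmed the reads with Trimmomatic, Trim Galore and cutadapt, aligned them to mm10 with STAR, aligned the unmapped reads to the Oryx dammah genome and counted them per gene with STAR. Versions are not given in the sources used here. The deposited values are a signal per library and gene, the count divided by a DESeq2 size factor by the authors. The table also holds the authors' mean, log2 change, standard error, statistic and p-values, which were not used. The other tables of the series, of mouse genes, were not used here.

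Every value was a whole multiple of the smallest value of its library (100% of values within 1e-06 of a whole read), and whole reads were recovered by division. Depth was 276921 to 534401 reads. The foreseen main test, edgeR 4.0.16 in R 4.3.3 (quasi-likelihood, TMM, filterByExpr), was run on these reads, with Benjamini-Hochberg adjustment over 4582 genes. The standard error was approximated from the F statistic. Alternatives were DESeq2 1.42.0, limma 3.58.1 on log2(normalized count + 1) or + 0.5, other scalings, no filter, no fold criterion, the replicate number as a block and each library left out. The procedures were tested on simulated data. The columns were matched to the groups, and libraries are called by column names. Detection at equal depth was the hypergeometric expectation. The named genes were, in each direction, the DEG with the smallest p and the member with the smallest p of the longest run of consecutive DEGs, and other genes are given by rank or place without identifiers. No gene list could be matched, since the identifiers are not paired with names. The members and measures were chosen with earlier results of these data known. Wilson intervals and floors cover counting error only, and PCR duplicates were not removed here.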

Additional observations from a re-analysis of the deposited data

How the results depend on the processing

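The numbers of genes higher and lower without α-amanitin were 454 and 151. They were 729 and 154 with DESeq2, which was run on all 14984 genes with a read and so changed the filter together with the tool, 789 and 215 when all genes with a read were tested, 547 and 90 with total reads alone, 627 and 469 by the adjusted p alone, and 198 to 640 and 67 to 174 with each library left out, with no gene called in opposite directions in any of these. The replicate numbers, taken from the column names, are not known to pair the libraries: deviations of libraries with the same number correlated at -0.05 to -0.03, and with the replicate number as a block 271 and 95 genes were called, of which 266 and 89 were among the 454 and 151. Over 15 settings, 150 higher and 45 lower genes were called in each.

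The median log2 change of the class under 10 (0.93) was 0.70 with DESeq2, 1.49 and 1.77 with limma at a pseudocount of 1 and 0.5, 1.18 with total reads alone, 1.19 without the filter, 1.51 with the block, 0.56 for the lowest quartile and 0.34 to 1.44 with each library left out. That from 10 to 100 (0.18) was 0.28 with DESeq2, 0.41 and 0.42 with limma, 0.45 with total reads alone, 0.28 with the block and 0.12 to 0.26 with each library left out. That from 100 to 1000 (-0.30) was -0.20 with DESeq2, -0.18 with limma at either pseudocount, -0.22 with DESeq2 size factors, -0.02 with total reads alone, 0.07 for the third quartile and -0.34 to -0.26 with each library left out. That at 1000 and over (-1.09) was -0.81 with total reads alone, -0.25 for the highest quartile and -1.19 to -0.96 with each library left out. The median at 1000 and over was below that from 100 to 1000 in each setting. The median from 10 to 100 was 0.20 without the filter. That under 10 rests on genes of which many passed the filter by reads in 1 group, so its place in the order is not read.

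The share of consecutive pairs that were both higher (1.29%) was 0.476% with DESeq2, 0.546% without the filter, 0.532% with the block, 0.133% at distance 50 and 0.389% to 2.03% with each library left out. The share that were both lower (0.304%) was 0.0304% with DESeq2, 0.0759% with total reads alone, 0.0708% without the filter, 1.52% by the adjusted p alone and 0.0642% to 0.379% with each library left out. The difference in detected genes (2736) was 1909 at 3 reads, 1129 at 10 reads and 2153 to 3077 with each library left out, and that in the share of the 100 most abundant genes (-11.1 points) was -6.23 for the 10 most abundant and -12.1 to -9.71 with each library left out. The 4 named genes kept their direction and an adjusted p under 0.05 in all 15 settings. They had been chosen by small p-values in the main fit of the same libraries, which favours this result. The fits without the filter tested more genes, and those with 1 library left out used fewer libraries. The cause of these shifts was not tested. Of the genes under 10, only 3.03% passed the filter of about 10 reads in at least 3 libraries, so most of this class was not tested with the filter.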
